A study of Mus musculus with 24 samples.

Results

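RNA polymerase II (RNAPII) subunit transcripts were followed through neural differentiation in the genes Polr2a to Polr2j. These 10 genes were chosen by symbol from the 21553 genes with counts, without use of any measured value. In the GRCm38 annotation they lie at chr11:69733997-69758637 (Polr2a, minus strand), chr5:77310147-77349324 (Polr2b, plus), chr8:94857450-94873535 (Polr2c, plus), chr10:80035949-80039795 (Polr2e, minus), chr15:79141009-79151774 (Polr2f, plus), chr19:8793127-8798577 (Polr2g, minus), chr16:20717665-20722267 (Polr2h, plus), chr7:30231948-30233390 (Polr2i, plus) and chr5:136116631-136122947 (Polr2j, plus), with Polr2d on chromosome 18. All 10 passed the filter on low counts, with 788 to 48581 reads per gene and library. WT cells were mouse E14 embryonic stem cells (ESCs), and slow/slow cells were derived from them by gene targeting and carried the R749H substitution of Polr2a on both alleles. Each genotype was sampled as ESCs kept in 2i and LIF, as neural progenitor cells (NPCs) at day 7 of monolayer culture in N2B27, as PSA-NCAM+ cells isolated with beads at day 10, and as neurons. The neurons were replated at day 7 and grown for 14 more days with ascorbic acid and cAMP. There were 3 libraries in each of the 8 groups, 24 in all, from separate differentiations. A single line stood for each genotype, and cells were plated for differentiation at 10000 (WT) or 30000 (slow/slow) per cm2, so that genotype, line and plating density cannot be told apart.

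RNAPII transcribes the protein-coding genes of the nucleus. RPB1, the product of Polr2a, and RPB2, the product of Polr2b, form the catalytic cleft, and the long C-terminal repeat domain of RPB1 recruits factors for capping, splicing and 3′ end formation. RPB3 and RPB11 (Polr2c and Polr2j) form the heterodimer on which the enzyme is built, RPB4 and RPB7 (Polr2d and Polr2g) form the stalk beside the RNA exit channel, and RPB9 (Polr2i) serves fidelity and backtracked transcript cleavage. RPB5, RPB6 and RPB8 (Polr2e, Polr2f and Polr2h) are shared with RNA polymerases I and III. The question was whether the partner subunits followed Polr2a in slow/slow neurons.

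The substituted residue lies near the catalytic part of RPB1. In the GENCODE transcript Polr2a-201, which encodes 1970 residues, codon 749 is CGA, an arginine codon, in exon 14 of 29 (GRCm38 chr11:69743356-69743358, minus strand). It is shown in the reference form, with 45 coding bases on either side and the codon in capitals. It is the codon that the R749H substitution changes.

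Polr2a codon 749: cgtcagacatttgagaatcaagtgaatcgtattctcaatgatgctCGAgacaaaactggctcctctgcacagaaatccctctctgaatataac

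Library totals ranged from 32974432 to 104466886 counts. Levels are given as CPM, counts scaled to a common library size after TMM scaling, which divides each library by its total times a composition factor, and changes as log2 values with their standard error (SE) from edgeR's quasi-likelihood test. A gene was called changed at a false discovery rate (FDR) under 0.05 over the 16627 genes tested. The summed level of 5 pluripotency markers was 5013 to 5734 CPM in ESCs and 75.5 to 127 CPM in neurons, and that of 5 neuron markers was 45.4 to 152 CPM in ESCs and 2235 to 2580 CPM in neurons. Within neurons, the genotypes differed in these markers. Snap25, a synaptic vesicle fusion protein, had levels of 208 and 60.2 CPM in WT and slow/slow neurons, Syn1, a synaptic vesicle protein, of 221 and 60.3 CPM and Rbfox3, a neuronal splicing factor, of 36.6 and 19.7 CPM. Those 3 of 5 neuron markers were called lower and the other 2 were not called. The sum of the 5 was 2396 to 2580 CPM in WT and 2235 to 2391 CPM in slow/slow neurons. Of 5 pluripotency markers, 3 were called higher and 1 lower, and 4 of 5 progenitor and 6 of 10 proliferation markers were called higher. Of 6 glial markers, 4 were called lower (Olig1 at -7.36) and 2 higher (Pdgfra at 2.07), and their sum was 93.8 to 124 CPM in WT and 44.2 to 63.8 CPM in slow/slow neurons. Of 8 endoderm and mesoderm markers, 6 were called higher and 2 lower (T and Foxa2, the latter with 42.8 CPM in WT neurons and 19.3 CPM in slow/slow ones), and their sum was 146 to 164 and 118 to 139 CPM. The sum of the proliferation markers was 1074 to 1371 and 1703 to 1796 CPM. Markers differed before neurons as well. The sum of the 5 neuron markers was 45.4 to 57.7 CPM in WT and 123 to 152 CPM in slow/slow ESCs. In NPCs this sum was 27.9 to 28.2 CPM in WT and 105 to 125 CPM in slow/slow cells. In PSA-NCAM+ cells the same sum was 23 to 36 and 54.9 to 254 CPM. The pluripotency sum was 1887 to 1961 CPM in WT and 1114 to 1232 CPM in slow/slow NPCs. In PSA-NCAM+ cells it was 1295 to 1779 and 678 to 705 CPM. The progenitor sum was 328 to 337 and 403 to 446 CPM in NPCs, and 219 to 286 and 559 to 709 CPM in PSA-NCAM+ cells. In ESCs it was 461 to 472 CPM in WT and 420 to 427 CPM in slow/slow cells. The WT sum was thus lower in NPCs and PSA-NCAM+ cells than in ESCs. In bulk samples, fewer cells of a type and less RNA per cell cannot be told apart. The part of cell composition in the results was not tested at any stage.

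Polr2a had the largest fall of the 10 genes in slow/slow neurons. It was at 307, 330 and 332 CPM in the WT and 176, 170 and 158 CPM in the slow/slow neurons. The ranges did not overlap, and the level was 323 ± 13.6 against 168 ± 8.68 CPM (SD, n = 3), a change of -0.94 ± 0.16 (SE) on the log2 scale and of -48% (FDR 7.76e-05, edgeR). In ESCs the values were 738, 687 and 725 CPM in WT and 763, 674 and 683 CPM in slow/slow cells. These ranges overlapped, and the change was -0.02 ± 0.16 (95% confidence interval -0.36 to 0.32). In NPCs, WT libraries held 277, 335 and 306 CPM and slow/slow libraries 380, 364 and 380 CPM. The NPC groups did not overlap, slow/slow being the higher, but the change of 0.29 ± 0.16 was not called (FDR 0.135, edgeR). PSA-NCAM+ cells gave 249, 317 and 340 CPM in WT and 195, 394 and 349 CPM in slow/slow libraries, where the replicates spread more widely than the genotypes. The lowest of these values came from slow/slow replicate 1, and without that library the change was 0.32 and was called (FDR 0.00877, edgeR).

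The order of the 8 group means for Polr2a was WT ESCs (717 CPM), slow/slow ESCs (707), slow/slow NPCs (375), WT neurons (323), slow/slow PSA-NCAM+ cells (313), WT NPCs (306), WT PSA-NCAM+ cells (302) and slow/slow neurons (168). The ranges of both ESC groups lay above those of all other groups. The ranges of the middle 5 groups overlapped in part, and the slow/slow neurons lay below every other library of the study. On the per-length scale, the authors' mean RPKM of Polr2a was 115 and 111 in WT and slow/slow ESCs, and 56.1 and 32 in WT and slow/slow neurons.

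Reads at the modified locus separated the genotypes in all libraries. The splicing table counts, for each intron, the reads that cross either exon-intron boundary and the reads that join the exons, with exons listed in the order of transcription. That the first count belongs to the first exon was checked on introns that an annotated transcript enters from one side only, with at least 50 boundary reads and counts that differed over 3-fold. The first count was the higher in 70.8% of 425 minus-strand introns entered from the first exon and in 11.8% of 287 entered from the second, and in 74.8% and 12.5% on the plus strand. At intron 12 of Polr2a, a 117-base intron (mm9 chr11:69557188-69557304), the first boundary was crossed by 43 to 242 reads in the 12 slow/slow libraries and by 0 to 10 reads in the 12 WT libraries. The second boundary was crossed by 0 to 11 and by 0 to 6 reads. Thus reads ran from exon 12 into the intron in slow/slow cells, while few crossed from the intron into exon 13 of the reference sequence. Of the reads that left exon 12, the share entering the intron was 32.4% ± 0.3, 29.9% ± 3.8, 35.7% ± 11.9 and 33.4% ± 2.5 (SD, n = 3) in slow/slow ESCs, NPCs, PSA-NCAM+ cells and neurons, as compared to 0.5%, 0.6%, 1.2% and 0.4% in the WT groups. The highest WT library was at 3.3% and the lowest slow/slow library at 25.6%, while the highest, at 49.3%, was slow/slow PSA-NCAM+ replicate 1, the library with the low Polr2a level. The table's own test for unequal boundaries gave p = 2.44e-29 to 5.21e-07 in the slow/slow libraries and 0.26 to 0.857 in the WT libraries, a binomial test on reads within each library. This intron therefore failed the balance filter of the study in every slow/slow library and entered no comparison of the genotypes. It was tested between WT stages, where retention differed by -0.6 to 0.3 points and was not called. Of 71369 introns with at least 15 reads in all 24 libraries, 1 (0.0014%) had unequal boundaries in every slow/slow and in no WT library, and that intron was this one. The criterion was set after the values had been seen. Per the methods, the targeting vector carried a selection cassette in intron 12 that was later removed with Flp recombinase. From sequenced PCR products of a region that includes this site, the paper reports no rearrangement or further mutation in slow/slow ESCs against the parental cells. What sequence remained in the intron was not examined here, and its part in these reads and in the Polr2a level was not tested.

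The neighbouring intron 11 (79 bases, mm9 chr11:69557474-69557552) was retained at 2.9% ± 0.8, 3.9% ± 0.3, 8.9% ± 7.8 and 3.2% ± 0.2 in slow/slow ESCs, NPCs, PSA-NCAM+ cells and neurons, and at 0.2% ± 0.1, 0.4% ± 0.5, 0.8% ± 1.2 and 0.1% ± 0.1 in the WT groups (SD, n = 3). The genotypes did not overlap at any stage. Of 59537 introns that passed the filters in all libraries, 0.0336% were higher in slow/slow cells without overlap at each of the 4 stages, and intron 11 was the only one of 60 introns of the subunit genes among them. Its differences of 2.7 to 8.1 points stayed under the 10-point threshold of the study, and it was picked out after its values had been seen. The largest value, 17.9%, came from slow/slow PSA-NCAM+ replicate 1.

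**Figure D1:**
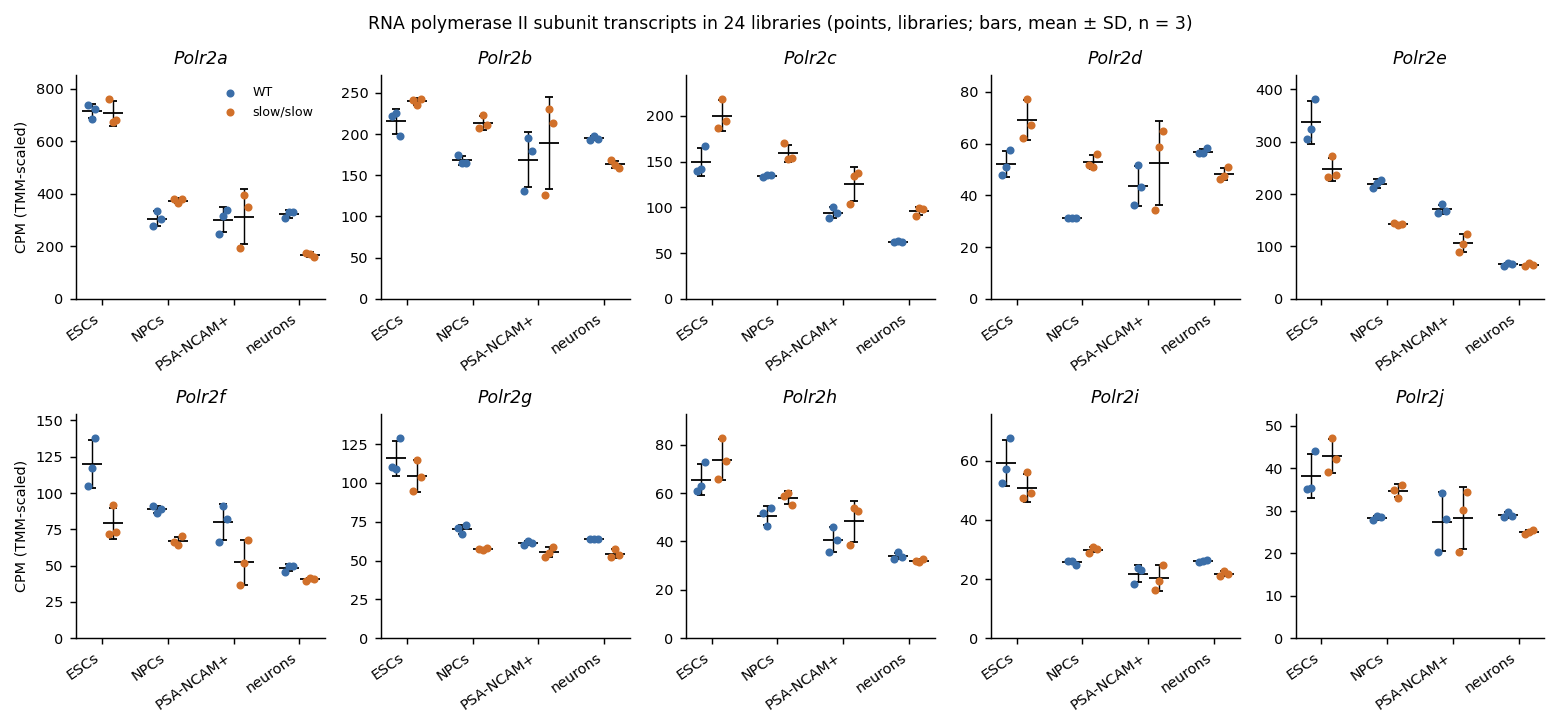
CPM of the 10 subunit genes (vertical axes, from 0, each panel with its own scale) by stage, WT in blue and slow/slow in orange, where points are libraries and bars the mean ± SD (n = 3). Polr2a in slow/slow neurons (158 to 176 CPM) lies below all other libraries, Polr2c lies above WT at each stage, and Polr2a spreads most in slow/slow PSA-NCAM+ cells (313 ± 104 CPM).

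None of the 9 partner subunits fell as far as Polr2a in slow/slow neurons. In the fit over all 24 libraries, 3 of the 10 genes were called in neurons, against 51.9% of all genes, namely Polr2a and Polr2g as lower and Polr2c as higher. Lower calls made up 28.4% of all genes. The median change was -0.24 over the 10 genes and -0.06 over all genes. The WT and slow/slow ranges were apart for 9 of the 10 genes, all but Polr2e, but 75.6% of all genes had ranges apart in neurons.

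Polr2b, the catalytic partner of Polr2a, was at 193, 198 and 194 CPM in WT neurons and at 168, 163 and 159 CPM in slow/slow neurons. All slow/slow libraries were below all WT libraries, with a change of -0.26 ± 0.15 (95% confidence interval -0.58 to 0.06; FDR 0.161, edgeR). Per length, the authors' mean RPKM of Polr2b and Polr2a was 48 and 56.1 in WT neurons, and 44 and 32 in slow/slow neurons.

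Of the assembly heterodimer, Polr2c was called higher. Polr2c, which encodes RPB3, was at 62.4, 62.8 and 62.1 CPM in WT and at 90.7, 99.3 and 98 CPM in slow/slow neurons. It rose 1.54-fold, by 0.62 ± 0.09 (FDR 1.44e-05, edgeR). Polr2j, which encodes its partner RPB11, was at 28.5, 29.8 and 28.9 CPM in WT and at 24.5, 25.1 and 25.4 CPM in slow/slow neurons, apart from each other but with a change of -0.22 ± 0.16 that was not called (FDR 0.271, edgeR).

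Of the stalk pair, Polr2g was called lower. It was at 64.1, 63.9 and 63.9 CPM in WT and at 52, 57.5 and 53.8 CPM in slow/slow neurons, a change of -0.23 ± 0.07 or -14.9% (FDR 0.0135, edgeR). Polr2d was at 56.3, 56.2 and 58.2 against 46.4, 47.5 and 50.8 CPM, with a change of nearly the same size, -0.24 ± 0.16, that was not called (FDR 0.218, edgeR). The difference between these calls lies in their standard errors. Polr2i, the gene of RPB9, was at 25.9, 26 and 26.4 CPM in WT and at 21, 22.7 and 21.6 CPM in slow/slow neurons, with a change of -0.26 ± 0.13 (FDR 0.0841, edgeR).

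Of the subunits shared with the other polymerases, Polr2e, Polr2f and Polr2h were not called in neurons. Polr2e was at 61.9, 68.4 and 67.3 CPM in WT and at 63.1, 67.6 and 65.1 CPM in slow/slow neurons, which overlapped, and its change was -0.01 ± 0.10 (95% confidence interval -0.22 to 0.19). Polr2h was at 32.9, 35.6 and 33.5 against 32.1, 31.4 and 32.6 CPM (-0.09 ± 0.12). Polr2f was at 45.8, 49.7 and 50 against 39.2, 41.7 and 40.7 CPM (-0.26 ± 0.16; FDR 0.174, edgeR). The other shared subunits, Polr2k and Polr2l, are not among the 10 genes. Polr2l was at 38.2 ± 2.42 CPM in WT and at 22.2 ± 1.75 CPM in slow/slow neurons (SD, n = 3), and fell by 0.78 on the log2 scale (FDR 0.000125, edgeR), while Polr2k was at 25 and 23.2 CPM and was not called (-0.11 ± 0.13).

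The number of partners called differed with the libraries fitted. Fitted on the 6 neuron libraries alone, which also changed the filter (15415 genes tested) and the scaling, 8 of the 10 genes were called, against 76.3% of all genes. Polr2a was then at -0.87, and Polr2b, Polr2d, Polr2f, Polr2g, Polr2i and Polr2j were called lower with changes of only -0.19 to -0.14, while Polr2c was called higher (0.69). Scaling mattered as well. With upper-quartile scaling or library totals, which moved the median of all genes in neurons by 0.14 and 0.13, Polr2g was not called (-0.09 and -0.10), Polr2a remained called at -0.80 and -0.81, and Polr2e and Polr2h turned to small positive values without a call.

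**Figure D2:**
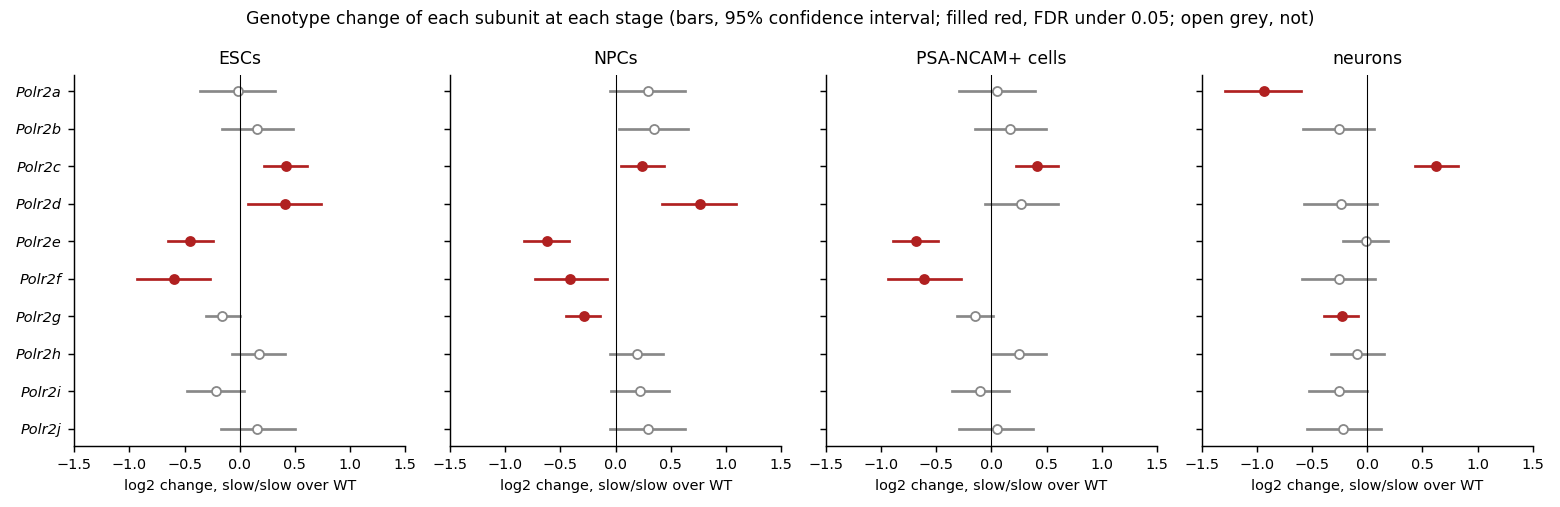
Log2 change of slow/slow over WT cells for each subunit gene (rows) at the 4 stages (panels), with 95% confidence intervals, where filled red points passed an FDR of 0.05. In neurons Polr2a stands apart at -0.94, Polr2c is at 0.62, and the remaining 8 lie between -0.26 and -0.01.

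The ratio of each partner to Polr2a within a library does not depend on the scaling. In neurons this ratio was higher in slow/slow cells for all 9 partners, without overlap of the genotypes. The difference was 0.68 on the log2 scale for Polr2i (1.6-fold), 0.69 for Polr2b and Polr2f, 0.71 for Polr2d and Polr2g, 0.73 for Polr2j, 0.86 for Polr2h, 0.93 for Polr2e and 1.56 for Polr2c (2.96-fold). Each two-sided exact permutation test gave p = 0.1, the smallest that 3 against 3 libraries allow, and 0.189 after adjustment over 36 relations. The same ratio was higher without overlap for 84% of all genes, since it holds the fall of Polr2a itself. In the other stages the ratios did not move one way. They were higher for 5 and lower for 4 partners in ESCs (-0.58 to 0.44), higher for 2 and lower for 7 in NPCs (-0.92 to 0.46), and higher for 5 and lower for 4 in PSA-NCAM+ cells (-0.69 to 0.40). Without overlap, 2 were higher and 2 lower in ESCs, against 28.5% and 29.2% of all genes. In NPCs 1 was higher and 3 lower without overlap, against 18.8% and 51.3% of all genes, whose median was -0.27. In PSA-NCAM+ cells 0 were higher and 2 lower without overlap, against 17.3% and 9.64% of all genes.

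**Figure D3:**
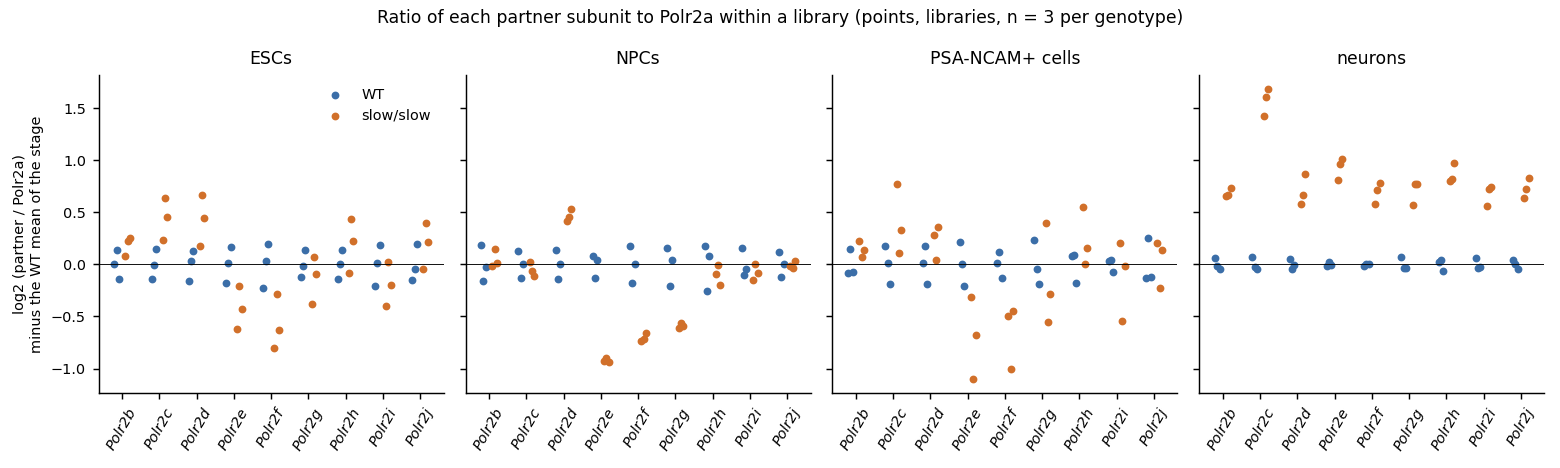
Log2 ratio of each partner to Polr2a in each library, minus the WT mean of the stage (vertical axis), for WT (blue) and slow/slow (orange) libraries, n = 3 per genotype. In neurons all slow/slow points lie above all WT points, with mean differences of 0.68 to 1.56, and in the other stages they lie on both sides.

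Before the neuron stage, genotype changes of the subunits went in both directions. In ESCs, 4 of the 10 genes were called, against 40.4% of all genes, with Polr2c (0.42 ± 0.09) and Polr2d (0.41 ± 0.16) higher and Polr2e (-0.45 ± 0.10) and Polr2f (-0.60 ± 0.16) lower. The ranges were apart for 5 of the 10 genes and for 59.8% of all genes. In NPCs, 5 genes were called, against 56.7% of all genes, with Polr2c (0.24) and Polr2d (0.76) higher and Polr2e (-0.62), Polr2f (-0.41) and Polr2g (-0.29) lower. All 10 genes had ranges apart in NPCs, as did 74.7% of all genes. Fitted on the 6 NPC libraries alone, all 10 were called, 7 as higher and 3 as lower, against 75.8% of all genes. In PSA-NCAM+ cells, 3 genes were called, against 56.7% of all genes, namely Polr2c (0.41), Polr2e (-0.68) and Polr2f (-0.61). Ranges were apart for 3 genes and for 43.1% of all genes. On the PSA-NCAM+ libraries alone only Polr2e was called, against 23.3% of all genes. That fit left out the pairing of these libraries by replicate number. With the number as a block, added after seeing the data, 3 were called, against 41.3% of all genes. Without slow/slow replicate 1 the fit over all stages called 7 genes, against 68.9% of all genes.

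Polr2d, the stalk subunit, showed the largest rise of these stages. In NPCs it was at 31.3, 31.2 and 31.4 CPM in WT and at 51.9, 50.9 and 56.1 CPM in slow/slow cells, a 1.69-fold difference (FDR 0.000505, edgeR). Polr2e fell at each of the first 3 stages. It was at 304, 324 and 382 CPM in WT and at 232, 272 and 237 CPM in slow/slow ESCs, and at 211, 221 and 227 against 144, 141 and 143 CPM in NPCs. In PSA-NCAM+ cells it was at 164, 181 and 168 against 89.9, 105 and 124 CPM, so that the genotypes did not overlap at any of these stages (FDR 0.00104, 2.51e-05 and 7.62e-06, edgeR). In neurons the genotypes were at 65.9 ± 3.51 and 65.3 ± 2.24 CPM (SD, n = 3).

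Polr2c, the RPB3 gene, was at 140, 142 and 167 CPM in WT and at 187, 219 and 195 CPM in slow/slow ESCs. It was at 133, 135 and 135 against 170, 153 and 154 CPM in NPCs, and at 88.4, 100 and 94 against 104, 134 and 138 CPM in PSA-NCAM+ cells. Every slow/slow library was above every WT library of its stage, as in neurons. The call in NPCs was kept in 3 of 6 fits that left out a library.

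Polr2f, the RPB6 gene, was at 105, 117 and 138 CPM in WT and at 72.1, 91.7 and 73.3 CPM in slow/slow ESCs. In NPCs it was at 91.2, 86.3 and 88.9 against 66.4, 64.3 and 70.3 CPM, and in PSA-NCAM+ cells at 66.5, 90.8 and 82.2 against 36.7, 52 and 67.8 CPM. The genotypes were apart in ESCs and NPCs and overlapped in PSA-NCAM+ cells, and the NPC call was kept in 0 of 6 fits that left out a library. Polr2d in ESCs was at 47.8, 51.1 and 57.4 against 62.3, 77.4 and 67.3 CPM, and its call was kept in 2 of 6 such fits. Polr2g in NPCs, the other stalk gene, was at 71.1, 67.1 and 72.7 against 57.5, 56.8 and 57.9 CPM.

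Levels per length put the subunits of WT neurons close together. The authors' mean RPKM there ran from 37.6 for Polr2h to 97.9 for Polr2f, with Polr2a at 56.1. In WT ESCs it ran from 48.9 for Polr2b to 282 for Polr2e, with Polr2a at 115. In slow/slow neurons Polr2a, at 32, was the lowest of the 10 and Polr2c, at 90.3, the highest.

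Polr2c and Polr2f changed in the same direction as the medians of the chromosomes that hold them, except that Polr2f was not called in neurons. Polr2c lies on chromosome 8, where the median change of 865 genes was 0.45, 0.49, 0.46 and 0.44 in ESCs, NPCs, PSA-NCAM+ cells and neurons. The change of Polr2c minus this median was -0.03, -0.24, -0.05 and 0.18. Polr2f lies on chromosome 15, where the median of 639 genes was -0.60, -0.57 and -0.56 in the first 3 stages but -0.08 in neurons, and the change of Polr2f minus the median was 0.00, 0.17, -0.05 and -0.18. For the other genes the chromosome medians lay within -0.13 and 0.15, and Polr2a in neurons was at -0.86 relative to chromosome 11. The paper reports the same number of chromosomes in WT and slow/slow ESCs by karyotyping. DNA copy number by chromosome was not measured here, and its part in these values was not tested.

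**Figure D4:**
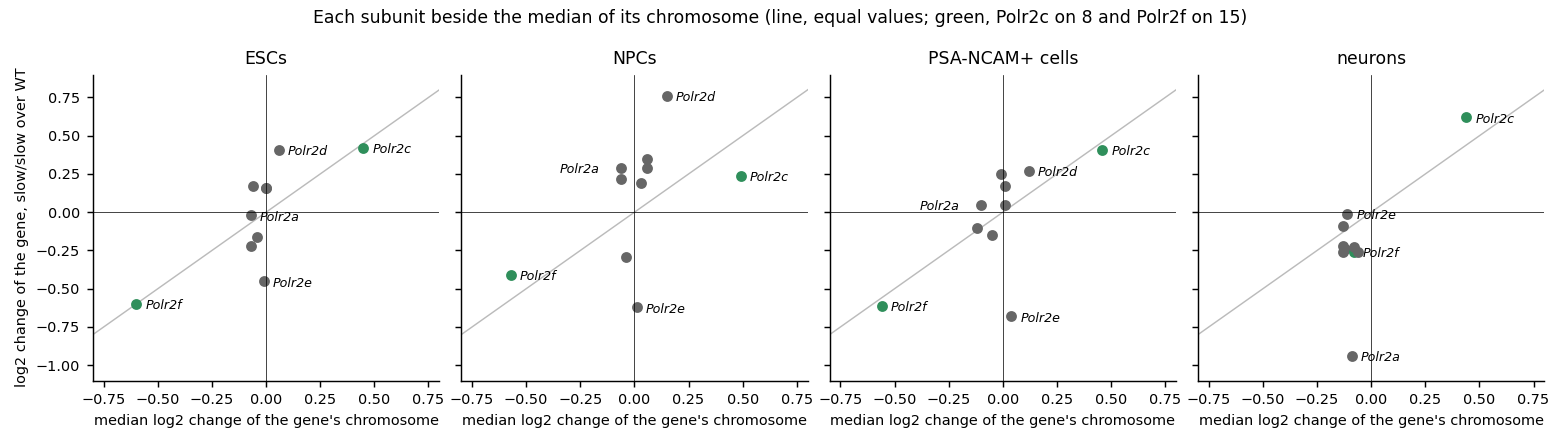
Log2 change of each subunit gene (vertical axis) against the median log2 change of all tested genes on its chromosome (horizontal axis) at the 4 stages, with a line of equal values and with Polr2c and Polr2f in green. The chromosome of Polr2c has medians of 0.44 to 0.49 at all stages and that of Polr2f -0.60 to -0.56 until neurons, and Polr2a in neurons is at -0.94 against -0.09.

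The genotype change itself was compared between stages by interaction contrasts of the same fit, which share the neuron libraries. Between neurons and ESCs, 3 of the 10 genes differed, against 42.1% of all genes, and between neurons and NPCs 6 differed, against 55.1%. Polr2a differed in both, by -0.92 ± 0.23 (FDR 0.00313, edgeR) and by -1.24 ± 0.23 (FDR 0.000158, edgeR). Polr2d also differed in both, by -0.65 and -1.0, and Polr2e in the opposite direction, by 0.43 and 0.61. Against NPCs, Polr2b (-0.60), Polr2i (-0.48) and Polr2c (0.38) differed as well. With a library left out, the call of Polr2d against ESCs was kept in 7 of 12 fits, and against NPCs that of Polr2i in 9 and that of Polr2b in 11, while the other interaction calls were kept in all 12.

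During differentiation of WT cells, subunit levels fell mostly between ESCs and NPCs. There, 9 of the 10 genes were called, all lower, against 65.6% of all genes called and 31.6% called lower. Polr2a (-1.23 ± 0.17; FDR 2.02e-06, edgeR) and Polr2i (-1.20 ± 0.13; FDR 7.01e-08, edgeR) fell most, Polr2d, Polr2g and Polr2e by 0.74, 0.72 and 0.62, and Polr2c (-0.16) was not called. With library totals only in place of TMM scaling, 5 were called, against 63.9% of all genes. When a library was left out, the call of Polr2b was kept in 1 of 6 fits, that of Polr2j in 4 and that of Polr2f in 5. From NPCs to PSA-NCAM+ cells 5 genes were called, against 41.3% of all genes, with Polr2c, Polr2e, Polr2g and Polr2h lower and Polr2d higher. With a library left out, the call of Polr2g was kept in 0 of 6 fits, that of Polr2h in 2 and that of Polr2d in 5. From NPCs to neurons 5 genes were called, against 80.2% of all genes. Polr2e fell by 1.74, Polr2c by 1.10, Polr2f by 0.87 and Polr2h by 0.58 on the log2 scale, Polr2d rose by 0.86, and Polr2a was at 0.08 ± 0.16 (FDR 0.669, edgeR).

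In slow/slow cells, 7 of the 10 genes were called from ESCs to NPCs, all lower, against 62.3% of all genes, and Polr2a was at -0.91. Here the call of Polr2d was kept in 2 of 6 fits with a library left out and that of Polr2h in 5. From NPCs to PSA-NCAM+ cells 3 were called lower, against 42.3% of all genes, namely Polr2c, Polr2e and Polr2i. From NPCs to neurons 8 were called, all lower, against 75% of all genes. Polr2a fell by 1.16 (FDR 2.6e-06, edgeR), Polr2e by 1.13, Polr2h by 0.86, Polr2c and Polr2f by 0.73, Polr2j by 0.47, Polr2i by 0.46 and Polr2b by 0.39, while Polr2d (-0.14) and Polr2g (-0.08) were not called. The call of Polr2b was kept in 4 of 6 fits with a library left out. Thus from NPCs to neurons Polr2a was among the genes not called in WT and had the lowest change of the 10 in slow/slow cells, and the interaction value given above is the difference between these changes.

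Across the 24 libraries, the genes with log2 CPM most like that of Polr2a by Pearson's r were Trpa1 (0.986), a cation channel, Cand1 (0.973), an exchange factor of cullin ligases, Pgd (0.970), an enzyme of the pentose phosphate pathway, Aven (0.970), an inhibitor of apoptosis, and Hspa4 (0.967), a chaperone. Among the partners r ran from 0.49 for Polr2d to 0.89 for Polr2i, and the median over all genes was -0.09. The libraries share stages and genotypes, so these are descriptions without a test. Their changes in slow/slow neurons, which the choice by r had used, were -2.94 for Trpa1, -1.12 for Aven, -0.51 for Hspa4, -0.43 for Pgd and -0.30 for Cand1.

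Other genes of the transcription machinery did not follow Polr2a as groups in neurons. Of 8 RNA polymerase I subunits, 1 was called higher and 2 lower (median -0.16), with Polr1g at -0.63 and Polr1a, the counterpart of Polr2a, at -0.61. Of 11 RNA polymerase III subunits, 2 were called higher and 4 lower (median -0.20), with Polr3gl at 1.16 and Polr3b at -0.50. The 13 factors of RNAPII assembly and import had 4 in each direction (median 0.04), among them Pdrg1 (-0.60) and Slc7a6os (0.46). Of 18 general transcription factor genes, 6 were called higher and 5 lower (median 0.02), led by Gtf2e2 (0.74). The 13 genes for kinases and phosphatases of the C-terminal domain had 4 in each direction (median -0.06), led by Cdk12 (-0.75), a kinase of elongating RNAPII. Of 11 genes linked to RNAPII ubiquitylation, 1 was called higher, Wwp2 (0.55), and 4 lower, with Cul5 at -0.38 (median -0.19). For comparison, 51.9% of all genes were called in neurons.

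Splicing of the subunit genes was assessed as PSI, the percent of transcripts that include an exon or keep an intron. The table listed 124 events in the 10 genes. Between genotypes, 104 (ESCs), 110 (NPCs), 110 (PSA-NCAM+ cells) and 112 (neurons) passed the coverage filters, and an event was called at a difference over 10 points with a posterior probability of its sign over 0.95. No event was called in ESCs, PSA-NCAM+ cells or neurons, where 0.199%, 0.266% and 0.887% of all events were, and 1 was called in NPCs, where 0.886% of all events and 0.321% of introns were. Events that were not called differed by -6.8 to 8.1 points, with a median absolute difference of 0.1 to 0.5 points by stage and kind of event. The skipped exon of Polr2a that the table lists was included at 96.2% to 99.9% in the 8 groups and that of Polr2d at 90.5% to 93.7%, and the exon of Polr2h could be compared only in neurons (23.3% ± 4.9 in slow/slow and 26.4% ± 5.9 in WT). Neither exon of Polr2c passed the filters.

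The called event was retention of the first intron of Polr2i, 77 bases long (mm9 chr7:31017424-31017500, plus strand). WT NPCs retained it at 3.5%, 3.6% and 3.7%, and slow/slow NPCs at 13.2%, 13.6% and 15.6%. The difference was 10.6 points (14.1% ± 1.3 against 3.6% ± 0.1; SD, n = 3), and an alternative test with limma gave an FDR of 0.000984. Without slow/slow replicate 3 it was 9.8 points and under the threshold. In ESCs the values were 7.7%, 6.2% and 7.0% in WT and 9.5%, 14.7% and 8.8% in slow/slow cells. PSA-NCAM+ cells gave 8.6%, 9.3% and 6.5% against 6.8%, 14.9% and 18.9%, and neurons 23.0%, 27.1% and 23.2% against 16.6%, 18.5% and 17.6%. Thus slow/slow libraries were higher without overlap in ESCs and NPCs, overlapped WT in PSA-NCAM+ cells and were lower without overlap in neurons (-6.8 points, not called). The neuron difference was under the 10-point threshold and had an FDR of 0.0282 in limma. The limma FDR was 0.351 in ESCs and 0.524 in PSA-NCAM+ cells.

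WT cells moved more than slow/slow cells from NPCs to neurons at this intron. The WT difference was 20.8 points (24.4% ± 2.3 against 3.6% ± 0.1), and it was the only called event among 111 tested in the 10 genes, where 2.32% of all events and 1.25% of introns were called. In slow/slow cells the difference was 3.4 points (17.6% ± 1.0 against 14.1% ± 1.3), no event of the 10 genes was called, and 1.07% of all events were. The other stage comparisons called no event of these genes. The share of all events called was 0.779% for NPCs over ESCs and 0.455% for PSA-NCAM+ cells over NPCs in WT, and 0.243% and 0.295% in slow/slow cells. The difference between the WT and slow/slow steps was not tested. At least 180 reads covered the intron in every library, and the level of Polr2i itself is given above.

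The intron is shown because it carried the one called splicing event. A 77-base intron between coding exons of Polr2i was found in the GENCODE annotation by its length (GRCm38 chr7:30232405-30232481, plus strand), with a GC content of 67.5%. It is printed in lower case between 15 coding bases in capitals, and begins with gt and ends with ag. It follows 59 coding bases, its length is not a multiple of 3, and read in frame it brings a tga stop codon that starts at its base 2. The annotated transcripts Polr2i-202 and Polr2i-206 keep it.

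Polr2i intron: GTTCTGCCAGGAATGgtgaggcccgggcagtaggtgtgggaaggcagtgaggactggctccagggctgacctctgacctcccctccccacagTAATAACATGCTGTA

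**Figure D5:**
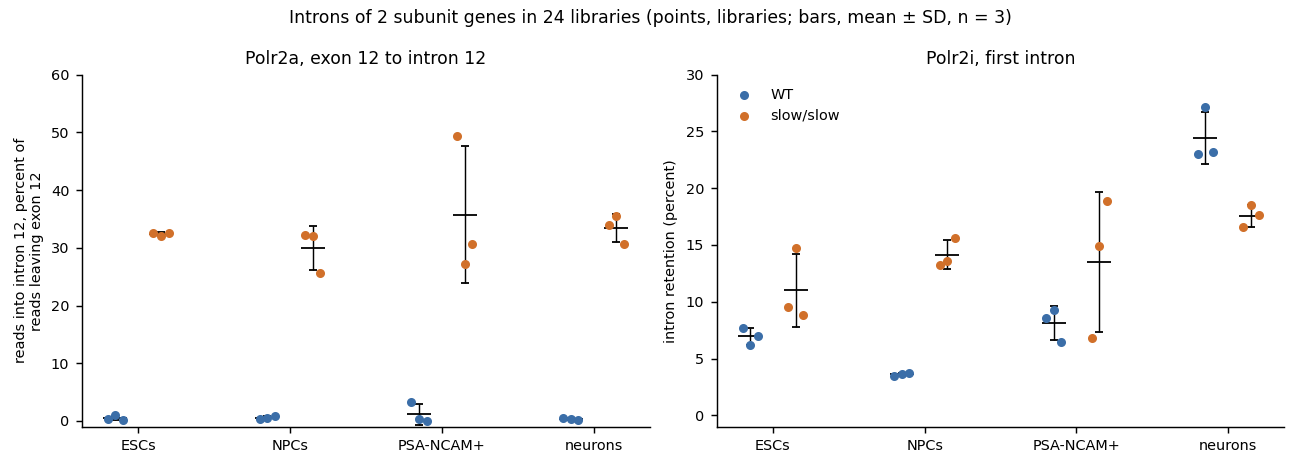
Left, reads that run from exon 12 of Polr2a into intron 12 as a percent of the reads leaving exon 12, and right, retention of the first intron of Polr2i in percent, by stage for WT (blue) and slow/slow (orange) libraries with mean ± SD (n = 3). All slow/slow libraries lie at 25.6% or above on the left and all WT libraries at 3.3% or below, and on the right slow/slow lies above WT in NPCs and below it in neurons.

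Some counts could include reads of a neighbouring gene, since the use of strand in counting was not stated. In the GRCm38 annotation, exons of Polr2b, Polr2c, Polr2f, Polr2h, Polr2i and Polr2j share 85, 953, 245, 82, 325 and 176 bases with Igfbp7, Dok4, 1700088E04Rik, Clcn2, Tbcb and Lrwd1 on the opposite strand, and Polr2a, Polr2d, Polr2e and Polr2g share none. Dok4 had 42.9 CPM in WT neurons and 33.7 CPM in slow/slow neurons (-0.35; FDR 0.057, edgeR), not called. Between the same groups, Clcn2, which overlaps Polr2h, fell from 56.9 to 38 CPM (-0.58; FDR 0.000111, edgeR). 1700088E04Rik fell from 1.55 to 0.838 CPM (-0.89; FDR 0.00784, edgeR), and Igfbp7 and Lrwd1 were not called. Tbcb fell from 100 to 71.3 CPM (-0.49; FDR 0.00111, edgeR), and its 5′ end lies 132 bases before the first intron of Polr2i. The part of these reads in the values of Polr2i and the others was not tested.

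Promoter sequences, 250 bases before to 50 after the start, were found in RefSeq (GRCm38.p6) for 8 of the 10 genes. On either strand, GGGCGG (GC box) was present in 6 of 8, against 35.7% of all 32851 promoters, CCAAT in 3 (37.4%), CCGGAAG in 3 (8.9%), TATAAA in 2, Polr2a and Polr2c (13.6%), and GCATGCG in 2 (3.6%). The subunits were counted by gene, with any of its listed promoters, and the percents by single promoter, so the 2 measures differ. No motif was common to all 8.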

How the data were processed

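Libraries of poly(A)+ RNA had been made with a stranded kit and sequenced as pairs of 75-base reads. The authors processed them with vast-tools on mm9, with base calling by bcl2fastq 2.17.1.14, and deposited raw counts per gene and library, RPKM values averaged by the authors within each group, and PSI, a percent per event and library, with read support. Deposited columns of the authors' own fold changes and FDR values were not used. Of 21553 genes with counts, 20451 (94.9%) matched the GRCm38 annotation by identifier. Splicing coordinates are in mm9 as deposited and were not converted; introns of Polr2a and Polr2i were matched to GRCm38 transcripts by intron length, and for Polr2a also by the lengths of the exons on either side.

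Counts were tested with edgeR 4.0.16 in R 4.3.3 (filterByExpr, TMM, glmQLFit and glmQLFTest) in 1 fit over all 24 libraries with a mean per group, and adjusted by Benjamini-Hochberg over 16627 genes. Ratios were tested by exact permutation with scipy 1.17.1. Splicing used the filters of the study, at least 15 reads and a balance p of at least 0.05 for introns, and beta posteriors of the read counts. The alternatives were DESeq2 1.42.0, limma 3.58.1 for splicing, other scalings, no filter, the libraries of a stage only, a replicate block, and leaving out each library. On simulated data for the neuron contrast, 39% of 1.5-fold and 63% of 2-fold changes over 16627 genes were recovered, with 7 unchanged genes called. Same-numbered PSA-NCAM+ libraries deviated together (r = 0.40 to 0.54), so that the numbers pair those samples, while between the genotypes of the other stages r was -0.08 to 0.07, and between slow/slow NPCs and PSA-NCAM+ cells 0.09 to 0.24. All 10 genes are named, of each other list at most 4 genes with the largest called changes in neurons, the 5 genes with the highest r with Polr2a, every called splicing event and the overlapping neighbours. Introns 11 and 12 of Polr2a fall outside this rule and were chosen after their values were seen. The members and lists were chosen with earlier results of these data known. Polr2m was not analysed here.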

Additional observations from a re-analysis of the deposited data

Results flagged for a closer look

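Reads at intron 12 of Polr2a belong to an intron that the study's balance filter removes and so lay outside the splicing comparisons. In the 12 slow/slow libraries a mean of 32.9% ± 5.8 (SD) of the reads leaving exon 12 ran into the intron, as compared to 0.7% ± 0.9 in the 12 WT libraries. The first boundary held 1763 reads and the second 37 in the slow/slow libraries together, and 29 and 20 in the WT libraries. Sequence left by the targeting was not examined here, and the cause was not tested.

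The genotype change of 6 of the 10 subunit genes differed between stages by an interaction test in edgeR, 3 between neurons and ESCs, against 42.1% of all genes, and 6 between neurons and NPCs, against 55.1%. From ESCs to neurons the change of Polr2a moved by -0.92, that of Polr2d by -0.65 and that of Polr2e by 0.43. From NPCs to neurons it moved by -1.24 for Polr2a, -1.0 for Polr2d, -0.60 for Polr2b and -0.48 for Polr2i, and by 0.61 for Polr2e and 0.38 for Polr2c. For Polr2e the change went from a fall in ESCs and NPCs to -0.01 in neurons, and for Polr2d from a rise to -0.24. With upper-quartile scaling or library totals, the differences of Polr2b and Polr2i between neurons and NPCs and of Polr2d between neurons and ESCs were not called, and those of Polr2a and Polr2e were called under both. The neuron libraries enter both contrasts.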

How the results depend on the processing

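In neurons, the fall of Polr2a kept its direction and call under all alternatives, and leaving out 1 library gave -0.99 to -0.91. Only the libraries of a stage in the fit gave 10 called genes in NPCs, where Polr2a was called at 0.27, 1 in PSA-NCAM+ cells and 8 in neurons. Library totals gave 5 called genes for WT and 4 for slow/slow NPCs over ESCs, against 63.9% and 60.4% of all genes. For slow/slow PSA-NCAM+ cells over NPCs, upper-quartile scaling and library totals each gave 5, against 44.4% and 43.5% of all genes. At 15 points the splicing call in NPCs was lost (0 events). Minus the chromosome median, Polr2c turned to -0.03 in ESCs, -0.24 in NPCs and -0.05 in PSA-NCAM+ cells and Polr2f to 0.17 in NPCs. The causes were not tested.

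Leaving out 1 library in NPCs kept the calls of Polr2d, Polr2e and Polr2g in 6 of 6 fits, that of Polr2c in 3 and that of Polr2f in 0. Only the first 3 of these genes were called without WT replicate 1 or 2 or slow/slow replicate 1. In PSA-NCAM+ cells, leaving out 1 library gave 3 to 7 called genes. There were 5 without WT replicate 2 and 7 without slow/slow replicate 1, the latter against 68.9% of all genes. Polr2a ranged from -0.13 to 0.32 in these PSA-NCAM+ fits. For WT PSA-NCAM+ cells over NPCs, the calls of Polr2c and Polr2e were kept in 6 of 6 such fits. Those of Polr2d, Polr2h and Polr2g were kept in 5, 2 and 0. For slow/slow PSA-NCAM+ cells over NPCs, the calls of Polr2c, Polr2e and Polr2i were kept in 6 of 6. Polr2a, Polr2f, Polr2h and Polr2j were each called in 1. Leaving out 1 library also gave 1 to 5 partners with a higher ratio in NPCs. It gave 0 to 1 splicing events for the genotypes in NPCs and PSA-NCAM+ cells and for slow/slow neurons over NPCs.

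With the replicate number as a block, 5 genes were called for slow/slow PSA-NCAM+ cells over NPCs, against 43.6% of all genes. In neurons 4 were called, against 53.3% of all genes, where Polr2i was added (-0.26). A block within the libraries of a stage was added after seeing the data. It gave 10 called genes in NPCs (Polr2a at 0.28), 3 in PSA-NCAM+ cells and 8 in neurons. The shares of all genes were 73.9%, 41.3% and 74.7%.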

Other observations

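Chromosome 15, which holds Polr2f, also moved between stages. In WT cells the median change of its 639 tested genes from NPCs to neurons was -0.56, and Polr2f fell by 0.87 on the log2 scale. In slow/slow cells the same median was 0.03, and Polr2f fell by 0.73. The median was 0.06 from WT ESCs to NPCs and -0.04 from WT NPCs to PSA-NCAM+ cells. These are medians over genes of the same libraries and were not tested.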
